A study of Mus musculus with 22 samples.

Results

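Whole-lung RNA of mice given ovalbumin (OVA) aerosol was compared with that of mice given methacholine (MCh) aerosol at the end of a long challenge protocol. The 4 OVA and 4 MCh libraries were picked by their column names in the deposited gene table and are 8 of the 22 libraries of the study. They are called a to d within each group, because the columns could be tied to their group but not to a replicate number of the labels. All mice were BALB/c (spelled BABL/c in the genotype label). The treatment text has every group, OVA, MCh and phosphate-buffered saline (PBS) alike, primed by the intraperitoneal route at 49 days of age and boosted at 63 days, with aerosols starting at 70 days. The long protocol ran with 3 aerosols per week over 4 weeks, which the titles give as 30 days. The 3 long PBS libraries serve here as a further level, and 4 OVA and 4 MCh libraries of a short protocol, with aerosols on 3 consecutive days, are used to ask whether the difference between both agents depended on the protocol. The titles give 4 days for the short MCh group, and they call the PBS and MCh mice normal. The labels do not say which agent was injected at priming, and trachea is the tissue in the series design, lung that of the samples.

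OVA is an egg-white protein that acts as an allergen in sensitized mice. In an allergic lung, T helper cells and innate lymphoid cells release the type 2 cytokines IL-4, IL-5 and IL-13, which act through STAT6 and related factors to produce eosinophil attractants, mucus cell differentiation, alternatively activated macrophages and antibody of the IgE class. MCh is a stable analogue of acetylcholine that contracts airway smooth muscle through muscarinic receptors and carries no allergen. The comparison sets allergen challenge against airway constriction without allergen.

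Expression was deposited as FPKM, the fragments per kilobase of transcript scaled to library size, for 20938 genes. Of these, 15682 reached 0.1 FPKM in 3 or more of the 22 libraries and were tested with limma on log2(FPKM + 0.5). A gene is called at an adjusted p under 0.05, and fold changes are log2 differences ± SE on that scale, OVA minus MCh. In a sample of whole lung, fewer cells of a type and less RNA per cell cannot be told apart. Nothing in the labels says whether the replicates came from separate challenge series. Lung markers were abundant in all 8 libraries, with 4660 to 6691 FPKM for surfactant protein gene Sftpc and 30695 to 46842 FPKM for the club cell secretoglobin Scgb1a1. MCh libraries a and c stood apart: 34.3% of genes were listed at 0 in MCh library a and 33.8% in MCh library c, against 23% and 23.4% in MCh libraries b and d, 22.6% to 25.3% in OVA and 22.5% to 24.1% in PBS libraries. The smallest steps in FPKM correspond to about 15 and 16 fragments per FPKM for a transcript of 1 kilobase in those libraries and to 18 to 25 in the other long libraries. Results are therefore given with all 8 libraries and, where a named gene's call or a list's count changes, also without the 3 libraries with most genes at 0, which are MCh a, MCh c and 1 short MCh library. Of the 745 genes described next as higher, 139 were listed at 0 in 2 or more MCh libraries, 106 of them in a and c alone. Genes are named by a rule (the 10 largest changes each way, the called genes with the 2 smallest p in a list, and key genes of this model), and genes outside it were chosen after their values were seen. Of 65 called genes named by the rule, 47 kept the call without each of the 8 libraries in turn.

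After 4 weeks, more genes were called higher than lower in OVA lungs on the deposited scale, but not with each library's trend with transcript length removed, where 677 were higher and 728 lower. With all libraries and the deposited values 951 genes were called (6.06% of those tested), 745 higher (4.75%) and 206 lower (1.31%) in OVA. Of these, 430 were higher and 37 lower by at least 2-fold. Increases among the genes named by the rule reached 7.92 on the log2 scale, and decreases -1.63. All 4 OVA libraries lay above all 4 MCh libraries for 635 of the 745 higher genes (9.6% of all tested genes had that pattern) and below them for 193 of the 206 lower genes (4.07%). The median over all tested genes was itself 0.14. With quantile normalization, which moved that median to -0.04, the split was 452 higher and 447 lower, and with median-of-ratios scaling it was 621 and 352. Without the 3 libraries with most genes at 0 the count was 490, with 391 higher and 99 lower, and 330 of the 745 higher and 64 of the 206 lower genes were called in both. All 745 and 206 genes had the same sign there. That is no independent check, since this fit reuses the OVA libraries and MCh libraries b and d from which the genes were called. The count also moved with single libraries, to 413, 626 and 533 without OVA libraries a, c and d, and to 2049, 588 and 2403 without MCh libraries b, c and d.

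**Figure D1:**
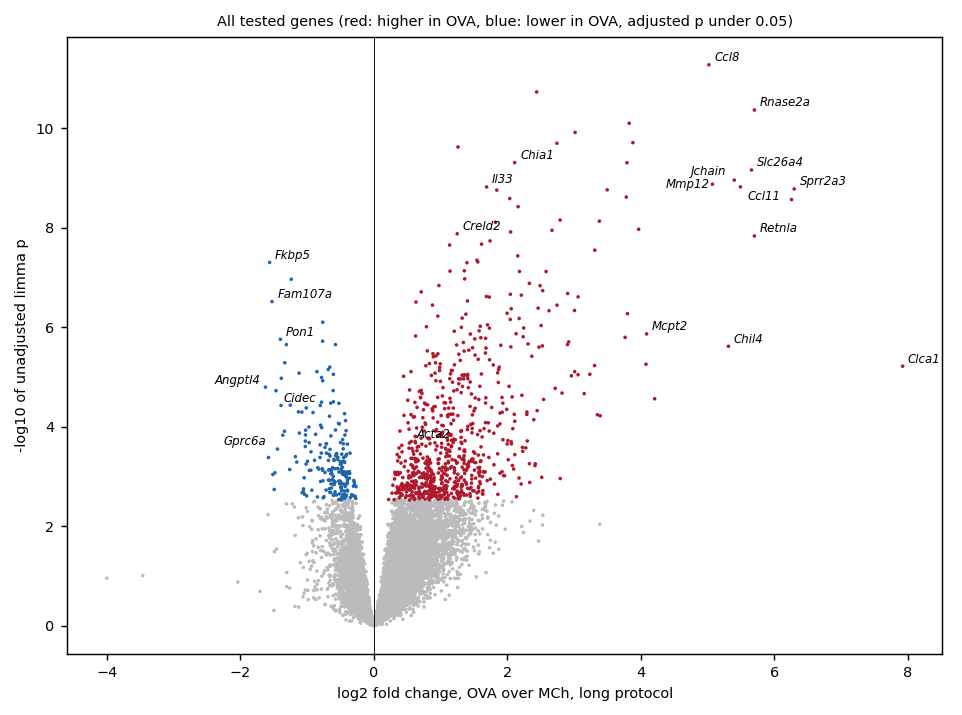
Each point is a tested gene, with the log2 fold change of OVA over MCh in the long protocol on the x axis and the -log10 of the unadjusted limma p on the y axis. Red points are the 745 genes higher in OVA and blue points the 206 lower, at an adjusted p under 0.05. Higher genes reach 7.92 and lower genes -1.63.

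Chemokines that recruit eosinophils and monocytes led the type 2 list. Of 17 tested type 2 cytokine and chemokine genes 13 were higher in OVA and none lower, with a median log2 difference of 1.63 (median of all tested genes 0.14). Without the 3 libraries with most genes at 0, 10 of the 17 were called. Ccl8, a monocyte and eosinophil attractant on chromosome 11, was at 65.8, 28.6, 29.9 and 43.5 FPKM in OVA libraries a to d, against 1, 0.537, 1.08 and 0.444 FPKM in MCh libraries a to d. It had the smallest p of the genes named by the rule (5.02 ± 0.34, limma adjusted p = 8.37e-08). Ccl11, the eosinophil attractant eotaxin (chromosome 11, 82057823 to 82062955 on mm10), was at 114, 74.8, 92.6 and 91.2 FPKM in OVA, against 1.34, 4.74, 0 and 3.19 FPKM in MCh libraries (5.49 ± 0.52, adjusted p = 1.54e-06). In PBS lungs it was at 10.7, 13.7 and 8.38 FPKM, so that the OVA libraries lay above and the MCh libraries below all 3 PBS libraries. The related monocyte attractants Ccl7 and Ccl12 also rose, by 3.97 and 2.96, and the second eotaxin of the mouse, Ccl24, by 2.24.

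Among the cytokines, Il33 was the most abundant. This alarmin of epithelial and other barrier cells (chromosome 19, 29925114 to 29960718) was at 308, 246, 238.5 and 238 FPKM in OVA, against 113, 69.1, 68 and 73.3 FPKM in MCh and 72.8, 81.1 and 65.7 FPKM in PBS libraries. OVA libraries were above all others, and MCh libraries b to d lay within the PBS range (1.69 ± 0.16, adjusted p = 1.54e-06). The cytokines of the type 2 T cell locus were near the floor of the measurement. Il13, which drives mucus production, was at 0.537, 0.051, 0.483 and 0.468 FPKM in OVA and listed at 0 in all 4 MCh libraries (adjusted p = 0.0338). Its call ended without the 3 libraries with most genes at 0 (adjusted p = 0.162) and without any of OVA libraries a, c and d or MCh libraries a and c (0.0629 to 0.125). Il5, the eosinophil growth factor, at 0.179, 0, 0.663 and 0.529 FPKM in OVA against 0, 0.0421, 0 and 0.0429 FPKM in MCh, did not pass (adjusted p = 0.1, and 0.0221 without OVA library b), nor did Il4, the cytokine of IgE switching, at 0.175, 0, 0.415 and 0.0974 FPKM in OVA and listed at 0 in MCh (0.277). Of 20 tested receptor and STAT6 pathway genes 8 were higher (6 without the 3 libraries with most genes at 0), with the IL-5 receptor chain Il5ra at 3.27, 1.97, 1.5 and 1.7 FPKM in OVA, against 0, 0.183, 0 and 0.107 FPKM in MCh (2.16 ± 0.25, adjusted p = 1.66e-05). The cytokine-induced feedback inhibitor Cish rose by 1.27 ± 0.20 (adjusted p = 0.000482). Stat6 itself was at -0.04 (0.843) and the shared IL-4 and IL-13 receptor chain Il4ra at 0.19 (0.274).

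Products of alternatively activated macrophages and IL-13-stimulated epithelium were the most widely raised list, with 15 of 18 tested genes higher, none lower and a median of 2.05, and 12 called without the 3 libraries with most genes at 0. Retnla, a small secreted protein of macrophages and airway epithelium (chromosome 16, 48842551 to 48844461), was the most abundant of them, at 4965, 2193, 4816 and 4294 FPKM in OVA, against 41.1, 111, 63 and 103 FPKM in MCh libraries (5.70 ± 0.62, adjusted p = 7.69e-06). PBS libraries, at 1430.0, 1647 and 224 FPKM, lay between both groups. The chitinase Chia1 was at 102, 74.4, 96.8 and 84.3 FPKM in OVA and at 23.2, 22, 18.1 and 17.9 FPKM in MCh (2.11 ± 0.19, adjusted p = 7.78e-07), and the C-type lectin Cd209e rose by 3.88 ± 0.32 (4.51e-07). Mmp12, the macrophage elastase, was at 190, 113, 37 and 71.6 FPKM in OVA, against 3.72, 1.81, 1.42 and 1.91 FPKM in MCh libraries (5.07 ± 0.47, adjusted p = 1.54e-06). The chitinase-like Chil4 rose by 5.31 ± 0.81 (adjusted p = 0.00037), with OVA library b, at 3.74 FPKM, far below the 42.2 to 46.7 FPKM of the other OVA libraries and still above the MCh range of 0 to 0.467. Chil4 and its near copy Chil3, and likewise Rnase2a and the other Ear genes, share sequence, so that their reads could be split between copies in the counting. The arginase Arg1 (3.78), which competes for the substrate of nitric oxide synthesis, was also called.

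Of the 10 largest increases, 8 have a promoter in the RefSeq table used (GRCm38.p6, 250 bases before to 50 after the start). The letters TTCNNNNGAA, the spaced palindrome that STAT6 prefers, occur in promoters of 3 of these 8 genes, Retnla and the near-identical Sprr2a1 and Sprr2a3. They occur in 6.95% of all 32851 promoters, a share counted by promoter and not by gene. The motif reads the same on both strands and was chosen after the values were known. A match describes letters in this window and does not show that a factor binds there. The promoters of Retnla (chr16:48842359-48842658, plus strand) and Sprr2a1 (chr3:92215585-92215884, plus strand) are shown 5′ to 3′ because both genes are among the largest increases, with the match in capitals.
Retnla: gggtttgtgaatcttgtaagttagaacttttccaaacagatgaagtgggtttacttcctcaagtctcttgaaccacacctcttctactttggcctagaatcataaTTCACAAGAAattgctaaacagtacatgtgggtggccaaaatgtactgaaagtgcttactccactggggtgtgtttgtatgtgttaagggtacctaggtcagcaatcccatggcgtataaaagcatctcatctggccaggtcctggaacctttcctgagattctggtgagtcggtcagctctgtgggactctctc
Sprr2a1: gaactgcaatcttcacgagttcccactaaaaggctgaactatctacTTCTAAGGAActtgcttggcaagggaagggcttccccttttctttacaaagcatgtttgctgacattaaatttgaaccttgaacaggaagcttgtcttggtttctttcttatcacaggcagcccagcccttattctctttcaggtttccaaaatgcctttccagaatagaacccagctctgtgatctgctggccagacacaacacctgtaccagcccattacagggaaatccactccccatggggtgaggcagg
The Sprr2a3 window shares a run of 272 identical bases with the Sprr2a1 window, offset by their start sites.

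Mucus genes were higher in OVA lungs. In the goblet cell list 9 of 19 tested genes were higher and none lower, with a median of 2.23. All 19 had a positive sign, as had 10654 of all 15682 tested genes. Clca1, a secreted protein of goblet cells (chromosome 3, 145003817 to 145032776), showed the largest increase of all named genes. It was at 565, 48.9, 609 and 615 FPKM in OVA, against 0.0681, 2.2, 2.71 and 0.112 FPKM in MCh (7.92 ± 1.29, adjusted p = 0.000733). OVA library b was low among the OVA libraries, yet the groups did not overlap, and PBS libraries were at 67.4, 73.3 and 9.83 FPKM. The anion exchanger Slc26a4 was at 77.2, 33.3, 64.1 and 62.6 FPKM in OVA and 0, 0.328, 0.716 and 2.75 FPKM in MCh (5.66 ± 0.51, adjusted p = 9.9e-07). Muc5ac, the gel-forming mucin induced in allergic airways, was at 7.96, 0.242, 2.73 and 4.08 FPKM in OVA and 0, 0.252, 0 and 0.104 FPKM in MCh. OVA library b fell within the MCh range, and the call (2.42 ± 0.59, adjusted p = 0.0179) ended without OVA library a (0.0877) or d (0.0631), without MCh library c (0.0513) and without the 3 libraries with most genes at 0 (0.134), where 4 of the 19 list members were called. Muc5b, the mucin of the resting airway, did not pass (2.40, adjusted p = 0.0632).

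The small proline-rich proteins Sprr2a1 and Sprr2a3, cornified-envelope proteins of stressed epithelium, were the next largest increases. Sprr2a1 was at 64.6, 6.73, 47.7 and 94.4 FPKM in OVA and listed at 0 in all MCh libraries (adjusted p = 2.04e-06), and Sprr2a3 was at 68, 6.67, 53.4 and 102 FPKM in OVA, against 0, 0, 0 and 0.0637 FPKM in MCh libraries (1.54e-06). Both are near-identical copies and may be 1 signal divided by the counting. The other 8 tested genes of that list, among them the basal keratins Krt5 and Krt14 (0.60 and 0.28), did not pass. OVA library b was the lowest OVA library for Clca1, Sprr2a1, Sprr2a3, Chil4, Slc26a4, Muc5ac and Retnla.

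**Figure D2:**
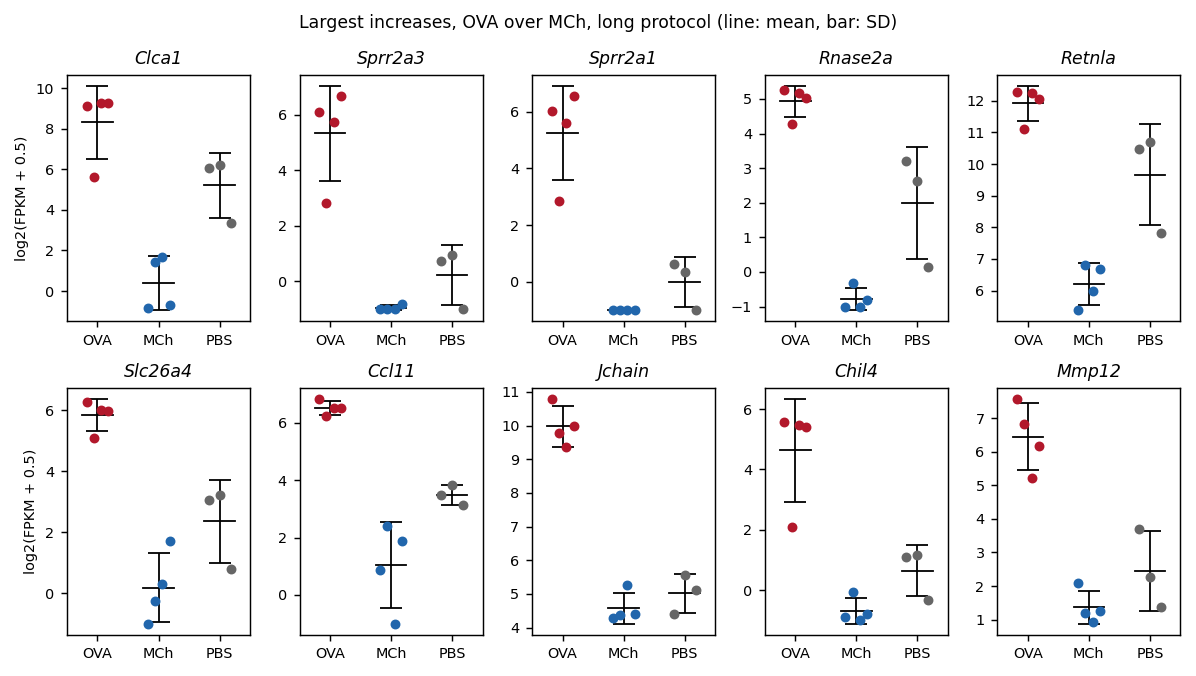
Points show log2(FPKM + 0.5) of each long library for the 10 genes with the largest increases, with OVA on the left, MCh in the middle and PBS on the right. Lines are means and bars SD (n = 4, 4 and 3). In each panel every OVA point lies above every MCh point, and the PBS points of Rnase2a and Retnla lie between.

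Genes of antibody-secreting cells and of the secretory apparatus rose together. Of 21 tested B cell and plasma cell genes 12 were higher and none lower (median 1.58), and 11 were called without the 3 libraries with most genes at 0. Jchain, which joins the units of polymeric IgA and IgM (chromosome 5, 88519809 to 88527891), was at 1768, 888, 653 and 1008 FPKM in OVA, against 18.9, 20.2, 37.7 and 20.7 FPKM in MCh and 20.7, 46.6 and 34.2 FPKM in PBS libraries. The OVA libraries were far above both other groups, which overlapped (5.40 ± 0.50, adjusted p = 1.45e-06). Tnfrsf17, the survival receptor of plasma cells, was at 1.67, 0.902, 0.832 and 0.937 FPKM in OVA and 0, 0.12, 0.206 and 0.112 FPKM in MCh (1.36 ± 0.17, adjusted p = 3.79e-05). The plasma cell chaperone Mzb1 (3.76), the transcription factor Irf4 (3.06) and the epithelial transporter of polymeric antibody Pigr (2.47) were called as well. The surface markers of resting B cells were positive but did not pass, with Ms4a1 at 1.49 (adjusted p = 0.146) and Cd79a at 1.52 (0.0935), and none of 14 lymphoid chemokine and B cell survival genes was called.

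Endoplasmic reticulum chaperones and folding enzymes, which load and fold secreted proteins, were higher for 14 of 21 tested genes and lower for none, by smaller amounts (median 0.62), and 13 were called without the 3 libraries with most genes at 0. Creld2, a stress-induced isomerase of that compartment, was at 123, 85.5, 82.1 and 99 FPKM in OVA, against 48.7, 39.8, 32.7 and 41.2 FPKM in MCh and 44.1, 47.7 and 40.4 FPKM in PBS libraries (1.25 ± 0.13, adjusted p = 7.17e-06). The co-chaperone Dnajb11 was at 72.5, 63.8, 65.3 and 66 FPKM in OVA, against 37, 41.3, 44.5 and 50.3 FPKM in MCh (0.63 ± 0.08, 8.34e-05). Hspa5, the central chaperone of the compartment, rose by 0.78 (0.000722), and the transcription factor Xbp1 of the folding response by 0.56 (0.00361). Genes of the response tied to translation arrest did not pass, with Ddit3 at 0.00 (0.997) and Atf4 at -0.03 (0.894). Of the 21 genes, Derl3 and Xbp1 also stand in the plasma cell list.

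The stress response element of these genes has the letters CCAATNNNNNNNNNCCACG, read here on both strands. It occurs in 7 of the 19 folding genes with a promoter in the RefSeq table (36.8%, counted by gene) and in 39 of all 32851 promoters (0.119%, counted by promoter). Those 7 are Creld2, Hspa5, Hsp90b1, Pdia6, Calr, Canx and Derl3, all of them called higher, although the element is textbook knowledge of this gene class and was looked for after the values were known. The Creld2 promoter (chr15:88819396-88819695, plus strand, GRCm38.p6) and the surroundings of the match in the other genes are shown 5′ to 3′ on the gene's strand, with the element in capitals. It stands in either orientation, as CGTGG to ATTGG in Creld2, Calr and Derl3.
Creld2: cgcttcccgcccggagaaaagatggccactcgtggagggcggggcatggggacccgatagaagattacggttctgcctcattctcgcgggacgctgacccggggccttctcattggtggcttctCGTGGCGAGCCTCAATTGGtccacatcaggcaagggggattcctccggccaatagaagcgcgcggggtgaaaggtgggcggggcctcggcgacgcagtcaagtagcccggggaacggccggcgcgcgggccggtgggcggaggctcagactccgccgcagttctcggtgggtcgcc
Hspa5: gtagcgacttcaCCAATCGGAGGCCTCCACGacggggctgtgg
Hsp90b1: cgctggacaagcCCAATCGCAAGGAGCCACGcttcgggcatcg
Pdia6: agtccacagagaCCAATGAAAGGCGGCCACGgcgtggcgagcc
Calr: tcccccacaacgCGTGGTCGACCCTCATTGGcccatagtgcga
Canx: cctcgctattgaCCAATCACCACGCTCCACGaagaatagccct
Derl3: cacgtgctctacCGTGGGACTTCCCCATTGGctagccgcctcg
The Hsp90b1 promoter holds 2 matches, of which the first is shown.

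Myeloid genes were higher, among them genes of macrophages and monocytes. In the monocyte, macrophage and dendritic cell list 12 of 23 tested genes were higher and none lower (median 0.96), and 11 were called without the 3 libraries with most genes at 0. Itgax, the integrin CD11c, was at 126, 109, 90.1 and 104 FPKM in OVA, against 36.8, 27, 21.2 and 37.4 FPKM in MCh (1.82 ± 0.19, adjusted p = 4.9e-06), and the macrophage membrane protein Ms4a7 rose by 2.21 ± 0.29 (6.74e-05). The 3 chains of complement C1q, C1qa, C1qb and C1qc, rose by 1.45, 1.34 and 1.40. Antigen-presenting genes H2-Aa and H2-Ab1 (0.35 and 0.22) and the dendritic cell receptor genes Flt3 and Xcr1 (0.35 and 0.14) did not pass. Of 22 complement and acute phase genes 7 were higher (6 without those libraries), with the siderophore-binding Lcn2 at 153, 116, 75 and 74.8 FPKM in OVA and 32.4, 30.8, 29 and 38.9 FPKM in MCh (1.60 ± 0.24, adjusted p = 0.000289) and the anaphylatoxin receptor C3ar1 up by 1.67 ± 0.25 (0.000293).

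Alveolar macrophage genes moved in both directions, 5 of 17 higher and 2 lower, beside 4.75% and 1.31% of all tested genes. The coagulation factor gene F7 was at 19.4, 14.9, 14.6 and 11.4 FPKM in OVA and 8.99, 6.33, 2.66 and 7.71 FPKM in MCh (1.26 ± 0.25, adjusted p = 0.00368). The lipid droplet protein Cidec was at 0.372, 0.222, 0.638 and 0.738 FPKM in OVA, against 1.24, 2.16, 4.06 and 1.96 FPKM in MCh (-1.47 ± 0.26, 0.00162). The fatty acid binding protein Fabp1 was at 1.06, 0.724, 1 and 1.19 FPKM in OVA and 1.7, 8.06, 1.6 and 7.68 FPKM in MCh (-1.51 ± 0.39, 0.0242, and 0.0548 to 0.0648 without OVA library a, b or c), and its 3 PBS libraries, at 9.47, 11.4 and 10.2 FPKM, were above all others. The scavenger receptor Marco and the transcription factor Pparg did not pass (-0.54 and 0.18).

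With all libraries, 2 of 12 eosinophil and 3 of 21 T cell genes were higher, while 4.75% of all tested genes were. The neutrophil and cytotoxic lymphocyte lists gave no calls there. Of 12 tested eosinophil genes 2 were higher: Il5ra, and Rnase2a, a ribonuclease of eosinophils and macrophages, at 37.9, 18.7, 35.3 and 31.9 FPKM in OVA against 0, 0.309, 0 and 0.0728 FPKM in MCh (5.70 ± 0.44, adjusted p = 2.25e-07). The granule protein genes Epx and Prg2 did not pass: Epx, the eosinophil peroxidase, was at 0.141, 0.203, 0.0314 and 0.113 FPKM in OVA and 0, 0.14, 0 and 0 FPKM in MCh (0.22 ± 0.19, 0.493), and the major basic protein Prg2 was at -0.07 (0.942). Mast cell genes rose in 6 of 18, led by the mucosal mast cell proteases Mcpt2, at 31.1, 1.11, 6.92 and 14.9 FPKM in OVA against 0, 0, 0 and 0.058 FPKM in MCh (4.09 ± 0.60, 0.000254), and Mcpt1 (4.08 ± 0.66, 0.000695), which are near copies. The connective tissue mast cell proteases Mcpt4 and Cma1 (0.06 and 0.28) and the receptor Kit (-0.03) did not pass. None of 16 neutrophil and none of 12 cytotoxic lymphocyte genes was called with all libraries, although 1 neutrophil gene was called higher without the 3 libraries with most genes at 0, and 3 of 21 T cell genes were higher, Cd6, Cd5 and Tnfrsf18, of which 1 was called without the 3 libraries with most genes at 0. Cd6, a T cell adhesion receptor, was at 4.78, 2.54, 3.02 and 4.91 FPKM in OVA and 0.383, 1.88, 0.328 and 1.67 FPKM in MCh (1.58 ± 0.40, 0.0221, and 0.347 without those libraries). Its call also ended without OVA library a or d or MCh library a or c (0.0694 to 0.0852), and that of Tnfrsf18, a costimulatory receptor (0.86), without MCh library a or any OVA library (0.0511 to 0.105) and without the 3 libraries with most genes at 0 (0.137).

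Further lists differed in their share of calls, while of all tested genes 4.75% were higher and 1.31% lower. Of 18 interferon-stimulated genes 5 were higher, with the chemokine Cxcl9 at 2.33, 4.16, 3.41 and 6.37 FPKM in OVA, against 0.109, 0.327, 0 and 0.717 FPKM in MCh (2.54 ± 0.47, adjusted p = 0.00219) and its relative Cxcl10 up by 1.48 ± 0.23 (0.000385). In the lipid mediator list 2 of 14 were higher, the prostaglandin E synthase Ptges (1.70 ± 0.24, 0.000191) and the leukotriene receptor Cysltr1 (2.01 ± 0.48, 0.0161). Cell cycle genes were positive in 24 of 28, beside 10654 of all 15682 genes, and called in 2, the spindle checkpoint kinase Bub1b (1.80 ± 0.38, 0.00689) and the replication helicase subunit Mcm2 (0.75 ± 0.22, 0.0488). Bub1b was at 0.0942 and 0.0289 FPKM in MCh libraries a and c and at 1.76 and 1.4 FPKM in b and d, and neither gene was called without the 3 libraries with most genes at 0 (0.138 and 0.592). Mcm2 was also not called without MCh library a or c or any OVA library (0.0739 to 0.143). Of the immediate early genes, Atf3 and Egr2 rose by 1.31 ± 0.19 (0.000203) and 1.47 ± 0.31 (0.00591), whereas Klf4 and Dusp1 fell by 0.55 and 0.77. Single members were called in 2 further lists, the mitochondrial chaperone Hspe1 (0.62 ± 0.18, 0.0408) and the clock repressor Bhlhe41 (1.94 ± 0.50, 0.025), and both calls ended without those libraries (0.188 and 0.29). The call of Hspe1 also ended without MCh library c or d or any OVA library (0.0513 to 0.134), and that of Bhlhe41 without OVA library a, b or d or MCh library a or c (0.0585 to 0.0869). Without the 3 libraries with most genes at 0, 3 of 18 mast cell and 3 of 18 interferon-stimulated genes were higher, 2 of 17 alveolar macrophage genes were higher and 3 lower, and 2 of 27 immediate early genes were higher and none lower.

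**Figure D3:**
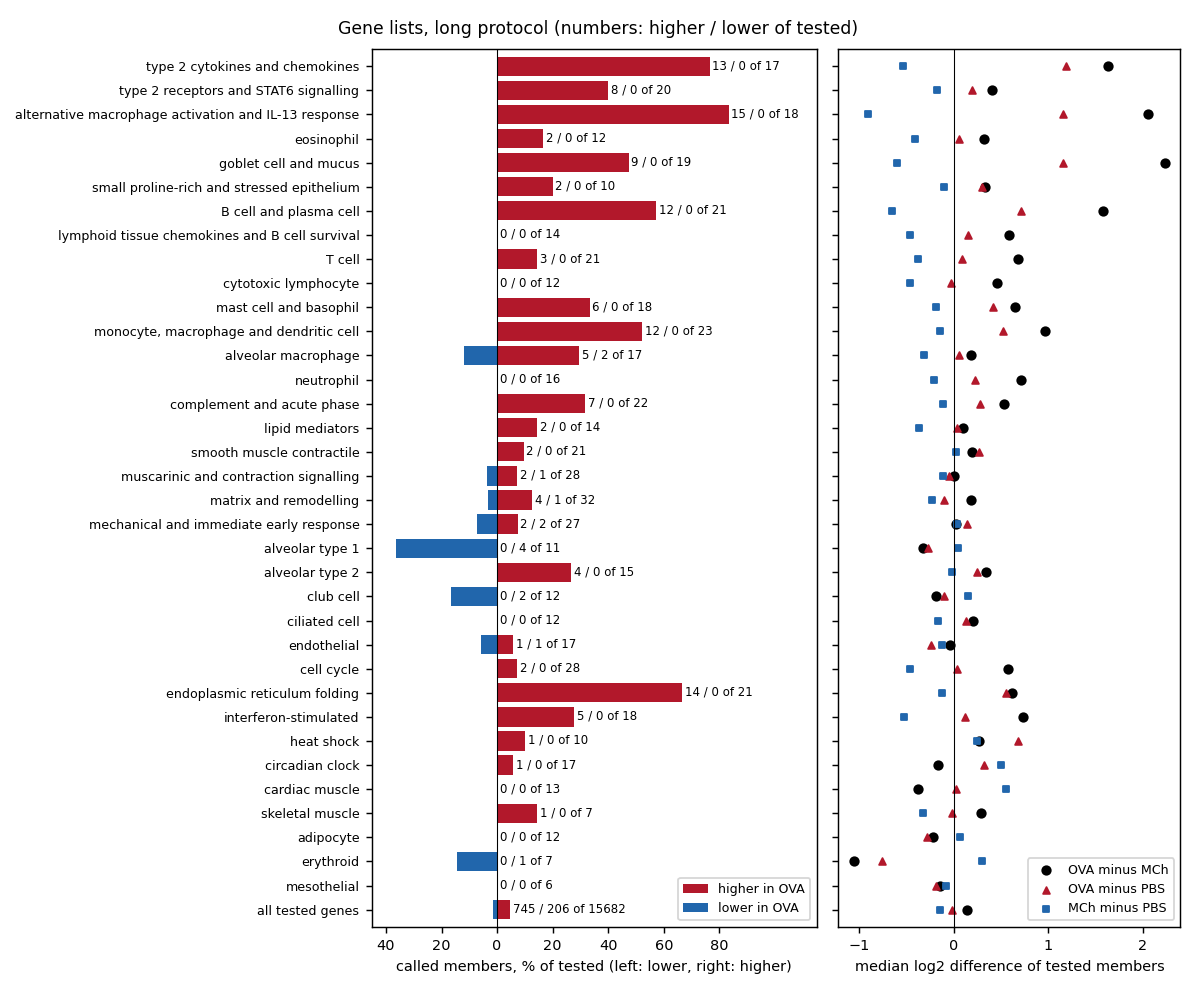
The left panel gives, for each gene list, the share of tested members called higher in OVA (red, to the right) and lower (blue, to the left), with the counts printed. The right panel gives the median log2 difference of the tested members for OVA minus MCh (black circles), OVA minus PBS (red triangles) and MCh minus PBS (blue squares). The macrophage activation list has 15 of 18 members higher and the alveolar type 1 list 4 of 11 lower, against 745 and 206 of 15682 genes.

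Contractile genes differed little between allergen and constrictor. In the smooth muscle list 2 of 21 genes were higher and none lower (median 0.20), beside 4.75% higher and 1.31% lower of all tested genes. Acta2, the smooth muscle actin, was at 146, 166, 161 and 159 FPKM in OVA, against 98.4, 99.2, 105 and 128 FPKM in MCh and 98.2, 125.5 and 119 FPKM in PBS libraries. OVA libraries were above the overlapping other groups (0.56 ± 0.12, adjusted p = 0.00901, and 0.104 without the 3 libraries with most genes at 0). The light chain Myl9 was at 16.5, 15.9, 13.8 and 14.9 FPKM in OVA and 12, 10.7, 11.2 and 12.1 FPKM in MCh (0.40 ± 0.10, 0.0232, and 0.0667 without those libraries). Its call also ended without OVA library a, b or d (0.0538 to 0.0949). Tagln, an actin-binding protein of the same cells, did not pass (0.20 ± 0.12, 0.309), at 236, 263, 238 and 223 FPKM in OVA and 255, 184, 173 and 231 FPKM in MCh libraries.

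Among 28 tested muscarinic and contraction signalling genes 2 were higher and 1 lower, with a median of 0. Of all tested genes 4.75% were higher and 1.31% lower. Rgs5 and Rgs16, which shorten signalling of G proteins, rose by 2.53 ± 0.38 (adjusted p = 0.000367) and 1.52 ± 0.29 (0.00293, and 0.0769 without the 3 libraries with most genes at 0), with Rgs5 at 32.9, 21.9, 20.7 and 19.1 FPKM in OVA, against 6.57, 4.26, 1.99 and 2.89 FPKM in MCh. Without the 3 libraries with most genes at 0, 1 gene of this list was higher and none lower. The muscarinic receptor Chrm2 was at 0.552, 0.463, 1.02 and 0.645 FPKM in OVA and 0, 1.25, 0.0301 and 1.09 FPKM in MCh (0.31 ± 0.34, 0.593), with MCh libraries a and c below and b and d above the OVA range, and its sign changed to -0.53 without the 3 libraries with most genes at 0. Chrm3, the receptor that contracts the airway, was at 1.21, 1.54, 0.663 and 1.02 FPKM in OVA and 1.9, 1.1, 0.0442 and 0.842 FPKM in MCh (0.28 ± 0.30, 0.585), and its sign changed to -0.13 without MCh library c and to -0.23 with quantile normalization.

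Matrix genes gave 4 higher and 1 lower of 32, beside 4.75% and 1.31% of all tested genes, and a median of 0.18. Without the 3 libraries with most genes at 0, 2 were higher and 1 lower. Besides Mmp12, the secreted phosphoprotein Spp1 was at 29.7, 22.7, 19.9 and 21.6 FPKM in OVA and 10.3, 9.31, 12.5 and 11.7 FPKM in MCh (1.06 ± 0.20, adjusted p = 0.00296). Fibronectin, Fn1, rose by 1.13 (0.0121) and the matrix protein Sparc fell by 0.50 (0.00939). The fibrillar collagen Col1a1, at 16.6, 13.8, 26 and 18.1 FPKM in OVA and 13, 15.3, 13.6 and 22.4 FPKM in MCh, did not pass (0.20 ± 0.32, 0.732), and its sign changed to -0.03 without the 3 libraries with most genes at 0. Tgfb1, the growth factor associated with airway remodelling, was at 9.67, 9.99, 9.71 and 9.86 FPKM in OVA and 5.58, 10.4, 9.34 and 9.64 FPKM in MCh (0.19 ± 0.16, 0.468). Its sign followed MCh library a, since the difference was -0.03 without the 3 libraries with most genes at 0 and 0.00 without MCh library a.

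Genes of alveolar type 1 cells and 2 club cell genes were among those that fell. In the alveolar type 1 list 4 of 11 genes were lower and none higher (median -0.32), and the summed FPKM of the list was 3602 to 4592 in OVA, against 4933 to 5137 in MCh and 4992 to 5027 in PBS libraries. Cav1, the caveolar coat protein of alveolar type 1 and endothelial cells, was at 395, 470.4, 466 and 419 FPKM in OVA and 649.8, 674, 549.5 and 573 FPKM in MCh (-0.48 ± 0.11, adjusted p = 0.0136, and 0.0642 without OVA library a). The water channel Aqp5 was at 72, 109.8, 105 and 106 FPKM in OVA and 122, 134, 153 and 139.5 FPKM in MCh (-0.49 ± 0.12, 0.021), without overlap, and was not called without OVA library a (0.0869), without MCh library c (0.0704) or without the 3 libraries with most genes at 0 (0.0881), where 1 of the 11 genes was. Ager, the receptor that marks these cells, did not pass (-0.31, 0.153). In the club cell list 2 of 12 were lower, beside 1.31% of all tested genes, and 1 without the 3 libraries with most genes at 0. The list median was -0.19, and 5 of its genes had a positive sign. None of 12 ciliated cell genes was called, and 10 had a positive sign (median 0.21). The cytochrome Cyp2f2 was at 902, 859, 1108 and 1139 FPKM in OVA and 1501, 1431, 1333 and 1405 FPKM in MCh (-0.51 ± 0.14, 0.0296, and 0.148 without those libraries). Its call also ended without OVA library a or b or MCh library a (0.0713 to 0.109).

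Alveolar type 2 genes went the other way in 4 of 15, while 4.75% of all tested genes were higher and 1.31% lower. The mucin Muc1 was up by 0.51 ± 0.10 (adjusted p = 0.00487) and the lamellar body protein Lamp3 by 0.38 ± 0.08 (0.0111). None of the 4 was called without the 3 libraries with most genes at 0. In the endothelial list 1 of 17 genes was higher and 1 lower, beside 4.75% and 1.31% of all tested genes. The adhesion molecule Sele rose by 1.86 ± 0.31 (0.000912). Esm1, a secreted proteoglycan of growing vessels, was at 15.1, 18.1, 25.6 and 17 FPKM in OVA and 51.9, 34.3, 29.9 and 34.8 FPKM in MCh (-0.97 ± 0.21, 0.00939, and 0.0709 without those libraries). Without the 3 libraries with most genes at 0, 2 genes of the endothelial list were higher and none lower. Markers of tissues next to the lung gave few calls: none of 13 cardiac, none of 12 adipocyte and none of 6 mesothelial genes, 1 of 7 skeletal muscle genes (Pvalb, at 0.0789, 0.384, 0.0617 and 0.127 FPKM in OVA and listed at 0 in MCh libraries) and 1 of 7 erythroid genes. The call of Pvalb, a calcium buffer of fast muscle, ended without OVA library a, b or d or MCh library a or c (0.0537 to 0.102), without the 3 libraries with most genes at 0 (0.181) and with quantile normalization (0.43) or the length trend removed (0.293). The summed FPKM of the cardiac list was 41 to 184 in OVA, 59.2 to 461 in MCh and 43.1 to 299.5 in PBS libraries, and the part of adjacent tissue in other results was not tested. The heme synthesis gene Alas2 of red cells was at 29.6, 24.3, 21.7 and 33 FPKM in OVA, against 86.8, 59.8, 47.9 and 71.7 FPKM in MCh (-1.26 ± 0.32, 0.0214, and 0.0501 to 0.0664 without OVA library a, b or c or MCh library a, and 0.0884 without the 3 libraries with most genes at 0), and the part of blood content in other results was not tested.

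Several of the largest decreases were genes whose level was higher in MCh than in PBS lungs. Fkbp5, a chaperone of the glucocorticoid receptor (chromosome 17, 28399094 to 28517527), was at 43.6, 46.9, 55.6 and 45 FPKM in OVA, against 133, 164.5, 179 and 103 FPKM in MCh and 40.2, 34.3 and 38.1 FPKM in PBS libraries. The MCh libraries stood above both other groups without overlap (-1.56 ± 0.18, adjusted p = 2.05e-05). Angptl4, a lipoprotein lipase inhibitor, was at 29.3, 20, 23.9 and 53.9 FPKM in OVA and 133.5, 59.5, 125 and 72.8 FPKM in MCh (-1.63 ± 0.29, 0.00144), with PBS libraries at 43.2, 22.5 and 20.6 FPKM. It was not called without the 3 libraries with most genes at 0 (-1.14, 0.0647). Fam107a, an actin-bundling stress response protein, was at 9.24, 13.2, 11.6 and 10.3 FPKM in OVA, against 46.8, 32.3, 29.2 and 25.9 FPKM in MCh and 15.4, 10.3 and 10.9 FPKM in PBS libraries (-1.53 ± 0.20, 8.31e-05).

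In contrast, the paraoxonase Pon1, an esterase, was at 2.59, 2.61, 3.81 and 3.22 FPKM in OVA, against 8.97, 8.63, 9.25 and 8.43 FPKM in MCh and 7.37, 7.34 and 8.3 FPKM in PBS libraries. Here the OVA libraries stood apart from both other groups (-1.40 ± 0.21, adjusted p = 0.000299), as they did for Cidec and for Cav1. The remaining largest decreases, Mettl21e, Doc2b, Htr2c and Gprc6a, lay between -1.58 and -1.45 at levels of 0.0425 to 13.7 FPKM. Doc2b and Htr2c overlapped between the groups, and Mettl21e, Doc2b and Gprc6a lost their calls without the 3 libraries with most genes at 0 (0.182, 0.5 and 0.183). Of single libraries, the call ended without MCh library c for Mettl21e (0.0578), without OVA library a for Gprc6a (0.0599), without OVA library a, b or d or MCh library c for Htr2c (0.0507 to 0.0869), and without MCh library a or c or any OVA library for Doc2b (0.0614 to 0.114).

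**Figure D4:**
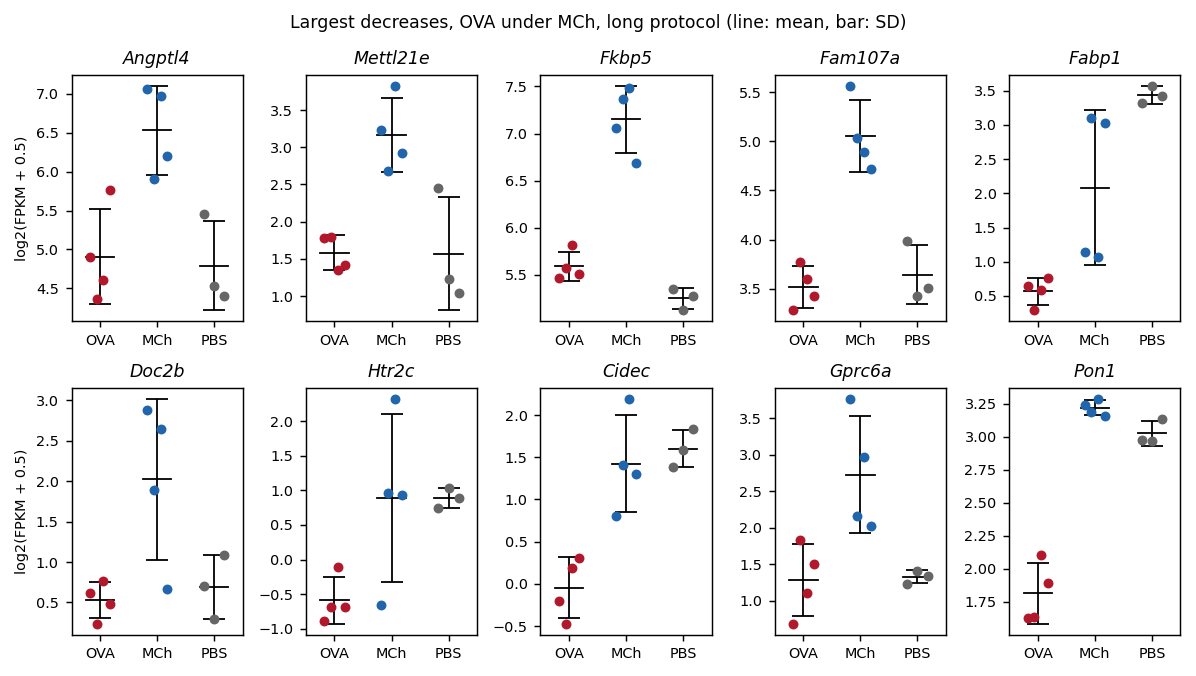
Points show log2(FPKM + 0.5) of each long library for the 10 genes with the largest decreases, with OVA on the left, MCh in the middle and PBS on the right, lines for means and bars for SD (n = 4, 4 and 3). For Fkbp5, Fam107a and Angptl4 the MCh points stand above OVA and PBS, and for Pon1 and Cidec the OVA points stand below MCh and PBS.

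The PBS level lay on different sides of the called differences. For the 745 higher genes the PBS mean lay between both groups and nearer MCh for 372, and between them and nearer OVA for 299. It was below the MCh mean for 47 genes and above the OVA mean for 27. For the 206 lower genes it lay between and nearer MCh for 86 and nearer OVA for 84, above the MCh mean for 19 and below the OVA mean for 17. For the macrophage activation list the medians were 1.16 for OVA minus PBS and -0.90 for MCh minus PBS, and for the goblet cell list 1.16 and -0.60. For endoplasmic reticulum folding they were 0.55 and -0.12, and for alveolar type 1 -0.27 and 0.05. All genes together had -0.02 and -0.14. These pairs of differences share the 3 PBS libraries, and no test is given for them. For Retnla, Clca1, Rnase2a and Slc26a4 the MCh level lay below PBS by 3.44, 4.82, 2.77 and 2.17 on the log2 scale, with PBS library 3 the lowest PBS library for all 4 genes.

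The difference between OVA and MCh was not the same in both protocols. Tested as an interaction, the OVA minus MCh difference of the long protocol differed from that of the short protocol for 130 genes (0.829% of those tested), 108 of them negative (0.689%) and 22 positive (0.14%). Of the 108, 91 had a difference in the long protocol that was positive and smaller than in the short protocol. In the type 2 cytokine list 8 of 17 genes had a negative interaction and in the macrophage activation list 6 of 18, against none in the other direction. Negative interactions were also found for 4 of 28 cell cycle and 5 of 22 complement and acute phase genes.

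Il13 was at 0.051 to 0.537 FPKM in long and at 10.7, 9.73, 4.42 and 7.38 FPKM in short OVA libraries, while it was listed at 0 in all long and in 3 of 4 short MCh libraries (long minus short -3.19 ± 0.30, adjusted p = 4.9e-06). Il5 was at 0 to 0.663 FPKM in long and at 9.95, 9.92, 5.37 and 7.67 FPKM in short OVA libraries (-3.26 ± 0.32, 5.86e-06). Il4 (-2.62 ± 0.31, 0.000111) and Epx (-1.87 ± 0.27, 0.000709) followed. For all 4 genes the long OVA libraries lay below all short OVA libraries. The 4 genes are among those with a called interaction, and the share of all tested genes with that pattern was not counted. Rnase2a and Cd209e, both called in the long protocol, had a smaller difference there than in the short protocol, by -2.93 ± 0.62 (0.022) and -2.56 ± 0.46 (0.00579), as did Chia1, at 102, 74.4, 96.8 and 84.3 FPKM in long and 479, 475, 357 and 413.5 FPKM in short OVA libraries (-2.14 ± 0.26, 0.000128). The receptor C3ar1 (-1.54 ± 0.35, 0.0391) and Spp1 (-1.47 ± 0.29, 0.0124, and 0.0525 without the 3 libraries with most genes at 0) also had a smaller difference. Rnase2a was not called without long OVA library b, short OVA library 1 or 2 or short MCh library 3 (0.0524 to 0.0662), and C3ar1 not without long OVA library b, c or d, long MCh library a, short OVA library 1, 2 or 4 or short MCh library 1, 2 or 3 (0.052 to 0.105). With a pseudocount of 0.1 the interaction calls of Rnase2a (0.265), Cd209e (0.313), C3ar1 (0.0742), Tnfrsf17 (0.0559) and Cyp2f2 (0.0659) ended. That of Rnase2a also ended with sums of transcripts (0.125). Ccl11, Mmp12 and Sprr2a1 had interactions of 0.02, 0.17 and 0.31, with SE of 0.73, 0.67 and 0.86 (adjusted p of 0.872 to 0.99), so that differences of more than 1 on the log2 scale in either direction lie within their spread.

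In the B cell and plasma cell list 2 of 21 genes, Jchain and Tnfrsf17, had a positive interaction and none a negative one (median 0.43, all tested genes 0.15). Jchain was at 1768, 888, 653 and 1008 FPKM in long and 98.4, 32.6, 101 and 27.2 FPKM in short OVA libraries, against 18.9 to 37.7 FPKM in long and 15 to 57.5 FPKM in short MCh libraries. The difference was 5.40 ± 0.50 in the long and 0.82 ± 0.50 in the short protocol (long minus short 4.58 ± 0.71, adjusted p = 0.00135). Tnfrsf17 also had a larger difference in the long protocol (1.28 ± 0.24, 0.0077, and 0.153 with quantile normalization), while Mzb1, at 3.76 and 1.73, did not pass (2.04 ± 0.79, 0.266). The protease inhibitor Slpi was at 167, 56.9, 51.4 and 95.6 FPKM in long and 27.2, 15.7, 21.5 and 18.2 FPKM in short OVA libraries (long minus short 2.02 ± 0.43, 0.0237), and the inflammatory monocyte marker Ly6c2 at 49.9, 28.5, 22.7 and 29.2 FPKM in long and 15.2, 14.4, 16.3 and 14.3 FPKM in short OVA libraries (1.86 ± 0.32, 0.00352). Ly6c2 was the 1 positive interaction in the monocyte, macrophage and dendritic cell list, where 3 were negative and the median was -0.52. Ccr2, another monocyte marker of that list, went the other way (-1.40 ± 0.21, 0.00121). For Cyp2f2 the difference was -0.51 in the long and -1.34 in the short protocol (long minus short 0.83 ± 0.19, 0.044). That call ended without long OVA library a, c or d, long MCh library b, c or d, short OVA library 1, 2 or 4 or short MCh library 1, 2 or 3 (0.0515 to 0.125), and without the 3 libraries with most genes at 0 (0.0963).

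The short OVA libraries also differ in the relation of level to transcript length. Across genes, which are no independent replicates, Spearman's rho was -0.475 to -0.391 in short OVA, -0.646 to 0.248 in short MCh, 0.266 to 0.37 in long OVA and 0.044 to 0.463 in long MCh libraries. With each library's trend with length removed the interaction count was 244, and without short MCh library 4, whose rho was -0.646, it was 2358. The part of this property in the difference between protocols was not tested.

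**Figure D5:**
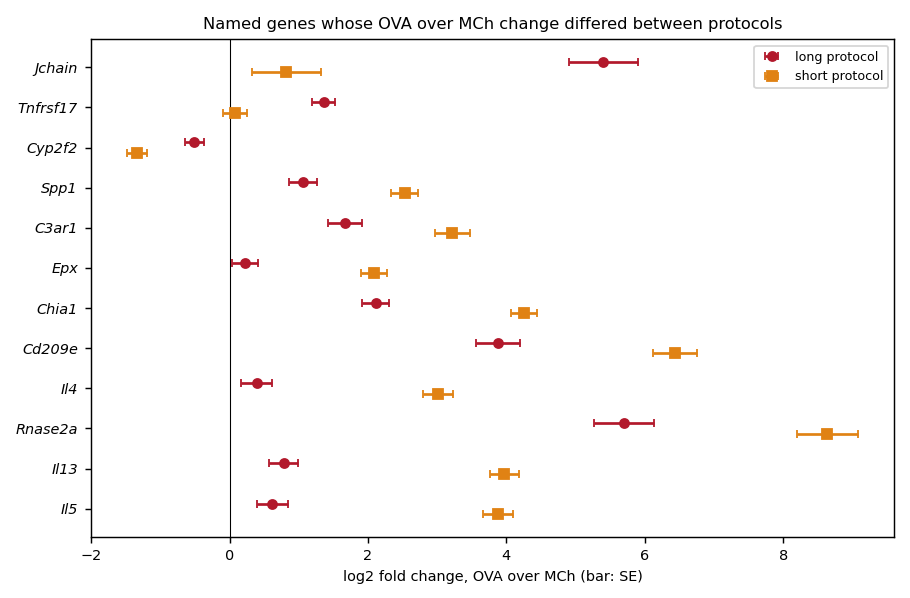
For the 12 named genes with an interaction at an adjusted p under 0.05, points give the log2 fold change of OVA over MCh in the long (circles) and short (squares) protocol, and bars its SE. Jchain and Tnfrsf17 have the larger difference in the long protocol, Cyp2f2 the smaller decrease, and the other 9 genes a smaller increase.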

How the data were processed

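Lung RNA of 22 mice, 1 library each, was prepared with a stranded total RNA kit, per the labels' protocols. Expression was deposited by the authors as FPKM, for 20938 genes and for 36844 transcripts. Trim Galore, STAR, DESeq2 and build mm10 are named in the submitters' processing notes, but not their versions or roles, and neither the FPKM program nor the annotation is given in the sources used here. Read counts were not used, so depth is known only from the smallest FPKM steps, and no counting interval can be given. Long OVA and MCh columns were tied to their group only, and 26 gene names in date form were not named.

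Values were taken as log2(FPKM + 0.5), which understates the fold of low genes. All 22 libraries were fitted with 1 coefficient per group in limma 3.58.1 under R 4.3.3 (empirical Bayes with intensity trend), two-sided, with Benjamini-Hochberg adjustment over the 15682 genes with at least 0.1 FPKM in 3 or more libraries. Every adjusted p is from this fit, except those given for another setting or without some libraries. Those are from a refit with its own adjustment. The p-values measure the spread between these samples, which may be technical. Genes were named by size (the top 10 called in each direction, mean over the 8 libraries at least 1 FPKM), by list (in each of 35 lists, holding 618 genes, the called genes with the 2 smallest p) or as key genes of the model. Members and lists were chosen with earlier results of these data known, and genes outside the rule after their values were seen. The fit was tested on simulated data. Alternatives were another pseudocount, filter, scaling, weighting and sample set, a replicate block and each library left out. Promoters are RefSeq's on GRCm38.p6 and gene positions GENCODE's on mm10. Some genes of the lists are not reported here.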

Additional observations from a re-analysis of the deposited data

Results flagged for a closer look

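In 12 of 150 groups of 4 libraries 1 library lay far from the other 3. The limit used flags about 1 in 20 groups of normally distributed values. That rate need not hold for groups with values listed at 0, such as those of Epx, Sprr2a3 and Mcpt2. OVA library b was low for Clca1 (48.9 FPKM), Chil4 (3.74 FPKM) and Il13 (0.051 FPKM). OVA library a was high for Il33 (308.1 FPKM), Tnfrsf17 (1.67 FPKM) and Atf3 (5.05 FPKM) and low for Aqp5 (72 FPKM). Among MCh libraries, a was high for Il33 (113.3 FPKM), b for Epx (0.14 FPKM), c for Jchain (37.7 FPKM), and d for Sprr2a3 (0.0637 FPKM) and Mcpt2 (0.058 FPKM), the other 3 libraries being listed at 0 for Epx, Sprr2a3 and Mcpt2.

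The OVA minus MCh difference differed between the long and the short protocol, by the limma interaction test, for 12 named genes. Long minus short, it was larger for Jchain (4.58) and Tnfrsf17 (1.28) and less negative for Cyp2f2 (0.83). It was smaller for the cytokines Il5 (-3.26), Il13 (-3.19) and Il4 (-2.62), and for Epx (-1.87) of eosinophils. Smaller differences were also found for Rnase2a (-2.93) of eosinophils and macrophages, Cd209e (-2.56), Chia1 (-2.14), C3ar1 (-1.54) and Spp1 (-1.47).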

How the results depend on the processing

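The count of 951 genes for OVA against MCh was 2150 with array weights, 292 in a fit of the 8 libraries alone, 467 with a fold of at least 2 required, 490 without the 3 libraries with most genes at 0, and 413 to 2403 with 1 library left out. The interaction count of 130 was 70 with a pseudocount of 0.1, 256 with quantile normalization, 4653 with array weights, 79 in a fit of its 16 libraries alone, 300 without the 3 libraries with most genes at 0, 3653 without the 4 libraries with an array weight under 0.25 (an alternative chosen after seeing the data), 244 with the length trend removed, and 86 to 2358 with 1 library left out. With the length trend removed OVA against MCh gave 677 higher and 728 lower genes. The fold limit lowers a count by construction, and the other causes were not tested.

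Signs changed for 4 genes that were not called. Chrm2 was at -0.13 with quantile normalization, -0.44 with array weights and -0.53 without the 3 or the 4 libraries. Chrm3 was at -0.23 with quantile normalization and between -0.13 and 0.58 with 1 library left out. Tgfb1 was at -0.03 with array weights and without the 3 or the 4 libraries, and between 0 and 0.28 with 1 library left out. Col1a1 was at -0.03 without the 3 or the 4 libraries.

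With the replicate block, OVA against MCh gave 591 genes and the interaction 80. Libraries with the same number in their column names did not deviate together (r from -0.054 to -0.021), no library correlated best with its own number, and the numbers are not taken to pair the mice. Of 65 called named genes, 22 lost the call without the 3 libraries with most genes at 0 and 25 in the fit of the 8 libraries alone. Low genes near 0 FPKM are limited by depth, which differs between libraries.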

Other observations

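A list of 20 genes known to be induced by glucocorticoids was drawn up after the high Fkbp5 level of MCh lungs had been seen. In OVA against MCh lungs, 10 of the 20 were lower, beside 1.31% of all tested genes, and none higher. A negative sign was found for 19 of 20, while 10654 of all 15682 tested genes had a positive sign. For MCh against PBS, 5 of the 20 were called. Since the list was prompted by these same libraries, its counts are no independent evidence. Its median log2 difference was -0.81 for OVA minus MCh, 0.04 for OVA minus PBS and 0.96 for MCh minus PBS in the long protocol, and -1.23 for OVA minus MCh in the short protocol. OVA minus MCh and MCh minus PBS share the MCh libraries, and no test is given for the list.

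Oosp1, named for its expression in oocytes and chosen after its values were seen, was at 2.89, 2.52, 1.57 and 2.06 FPKM in OVA libraries and listed at 0 in all MCh and PBS libraries of the long protocol.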
